A study of Homo sapiens with 5 samples.

Results

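DNA mismatch repair removes bases that were mispaired during replication, and 6 of its genes are described here: MSH6, MSH3, PMS2, PMS1, MLH3 and EXO1. They were taken by symbol from a table of 58174 genes, and 1 row was found for each of the 6. The RNA was from Ishikawa, a cell line established from a human endometrial carcinoma. In 3 libraries the cells carried a lentiviral short hairpin (sh-LINC00958) directed at LINC00958, a long non-coding RNA, and 2 were labelled sh-NC, the control hairpin. The protocol attached to all 5 libraries selects stably infected cells with puromycin at 2.5 µg/ml from 72 h after infection. The sources used here give neither the number of hairpins, their sequences nor the time of harvest, and nothing says whether replicates were grown as separate cultures. The p-values therefore measure only the spread between these libraries, which may be technical.

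In this pathway a MutS heterodimer recognises the mispair, a MutL heterodimer is recruited and nicks the new strand, and an exonuclease removes the stretch that holds the error before it is resynthesised. MSH6 and MSH3 are the alternative partners in the MutS heterodimers, the first known for single-base mispairs and short loops and the second for larger loops. PMS2, PMS1 and MLH3 are the alternative partners in the MutL heterodimers, and EXO1 is the exonuclease. Loss of mismatch repair is frequent in endometrial carcinoma and leaves short repeats unstable.

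The values are TPM, a transcript abundance scaled by gene length and by library total, so that the levels of different genes can be set side by side. They keep no sequencing depth, so no counting interval can be given. Each library summed to 999932 to 999947 TPM, with 27896 to 29411 genes above 0. LINC00958 itself measured 67.2, 67.1 and 58.4 TPM in sh-LINC00958 and 119.3 and 137.4 TPM in sh-NC. On the first principal component of all tested genes, sh-LINC00958 replicate 2 lay nearest its opposite group (-10.1, against -24.3 and -30.7 in its own group and 29.9 and 35.2 in sh-NC). All 8 endometrial epithelial markers were at 1 TPM or more, with a summed level of 2446 to 2620 TPM in sh-LINC00958 and 2467 to 2470 TPM in sh-NC. Of the fibroblast, blood and endothelial markers 1 of 7, 1 of 6 and 3 of 5 reached 1 TPM, and DCN, CD3E, HBB and KDR were at 0 in all 5 libraries. The summed levels of those 3 lists stayed under 7 TPM in each library. Of these markers KRT18, an epithelial keratin, rose (log2 fold change 0.44), and none of the other 7 epithelial, 1 fibroblast, 1 blood and 3 endothelial markers tested was called. After removal of a trend with GC content and length, described further on, PAX8 (-0.36, limma adjusted p = 0.0311) and SOX17 (-0.45, adjusted p = 0.0443), transcription factors of the uterine epithelium, were called lower as well. The part of the markers in the results below was not tested.

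All 6 genes were expressed. By mean level over the 5 libraries EXO1 was highest at 51.0 TPM, followed by PMS2 at 29.4, PMS1 at 27.8, MSH6 at 19.9, MLH3 at 14.2 and MSH3 at 9.76 TPM. Among the 17049 genes with a mean of at least 1 TPM these levels ran from the 40.2nd percentile for MSH3 to the 78.2nd for EXO1. EXO1 exceeded PMS2 in 5 of 5 libraries, and the ranges of these 2 genes did not overlap. PMS2 exceeded PMS1 in only 3 of 5 libraries, so the order of these neighbours was within their spread. PMS1 exceeded MSH6 in all 5 libraries although their ranges overlapped, and MSH6 stood above MLH3, and MLH3 above MSH3, with no overlap.

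**Figure D1:**
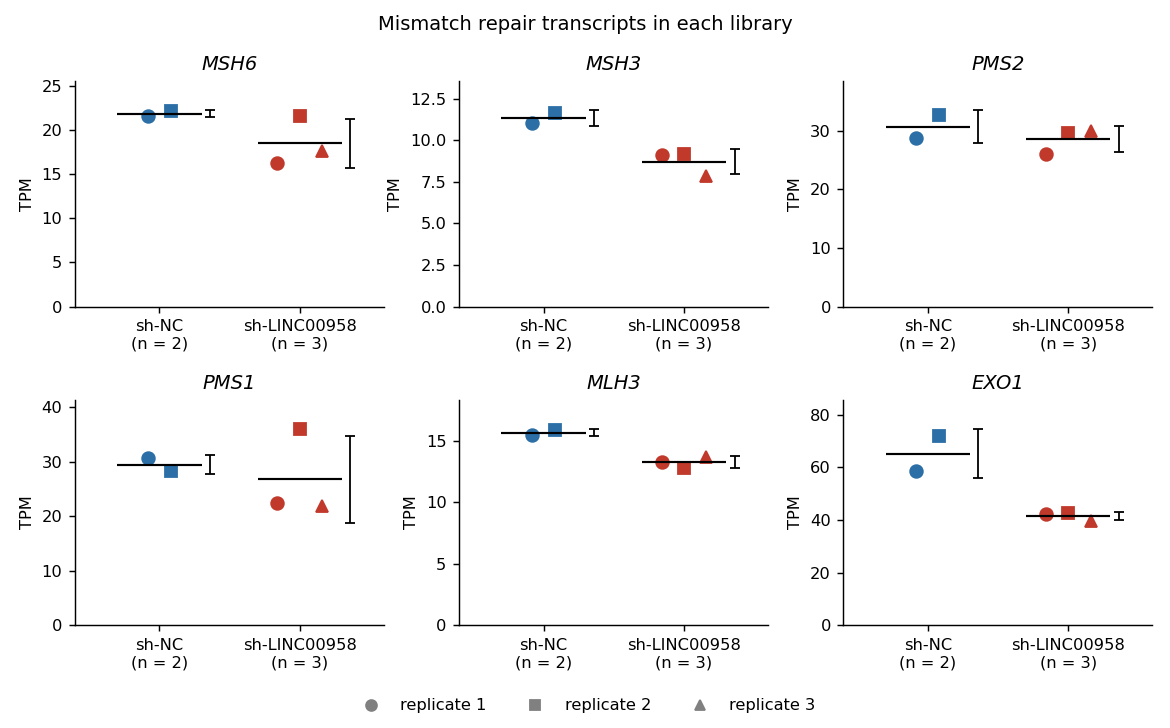
TPM of the 6 mismatch repair genes in each library, with 1 panel per gene and the axis starting at 0; lines give the group mean and bars beside them the SD (sh-NC n = 2, sh-LINC00958 n = 3). EXO1, MSH3 and MLH3 are lower in every sh-LINC00958 library than in either sh-NC library, and replicate 2 stands above the other sh-LINC00958 libraries for MSH6 and PMS1.

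Promoter sequences are shown for 3 of the genes that hold a match to a searched motif, among them EXO1, the gene that was called. That of MSH3, which also holds a match, is not printed. Each window covers 150 bases before to 30 after the most upstream start in RefSeq's promoter table, read 5′ to 3′ on the gene's strand. Capitals mark a match to any of 4 letter strings that resemble the binding site of E2F, the transcription factor family of the G1 to S transition. The strings searched, on both strands, were TTTCCCGC, TTTGGCGC, TTTCGCGC and TTTGCCGC.

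EXO1 (GRCh38.p14, chr1:241848054-241848233, plus strand): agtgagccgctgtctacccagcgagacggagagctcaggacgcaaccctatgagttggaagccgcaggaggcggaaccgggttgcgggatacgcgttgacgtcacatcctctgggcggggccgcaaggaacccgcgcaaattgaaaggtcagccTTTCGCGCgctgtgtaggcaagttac
MSH6 (GRCh38.p14, chr2:47782995-47783174, plus strand): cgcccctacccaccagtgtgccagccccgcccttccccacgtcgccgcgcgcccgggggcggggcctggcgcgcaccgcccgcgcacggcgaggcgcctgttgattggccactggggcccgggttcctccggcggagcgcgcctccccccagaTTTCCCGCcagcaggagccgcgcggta
PMS2 (GRCh38.p14, chr7:6009077-6009256, minus strand): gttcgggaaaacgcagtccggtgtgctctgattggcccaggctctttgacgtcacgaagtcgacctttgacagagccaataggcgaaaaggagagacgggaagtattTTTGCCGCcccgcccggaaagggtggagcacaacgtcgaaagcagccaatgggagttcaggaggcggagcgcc

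A match was found in 4 of the 6 genes, against 2.2% of 27305 promoter windows of the same length and 3.54% of the 10290 windows whose gene had a mean of at least 1 TPM. In EXO1 the match began at base 5 after the start and in MSH6 at base 4, counting the start as base 1. In MSH3 there were 2 overlapping matches on opposite strands, beginning 107 and 103 bases before the start. In PMS2 the match began 43 bases before the start, and the windows of PMS1 and MLH3 held none. GC content of the 6 windows ran from 58.3% in PMS2 to 78.9% in MSH6. The background windows were not matched for GC content, and the difference in share was not tested. A match is a run of letters and not a measured site.

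EXO1, the exonuclease of the excision step, fell to 63.6% of its control level. The gene (ENSG00000174371, chromosome 1, 241847967 to 241895148 on the plus strand of GRCh38) measured 42.2, 42.6 and 39.7 TPM in sh-LINC00958 and 58.7 and 71.9 TPM in sh-NC. The groups did not overlap, and the control libraries differed from each other more than the hairpin libraries did. Mean levels were 41.5 ± 1.57 TPM (SD, n = 3) with the LINC00958 hairpin and 65.3 ± 9.36 TPM (SD, n = 2) with the control. A limma fit to log2(TPM + 1) over all 17049 genes gave EXO1 a log2 fold change of -0.63 (SE 0.111; adjusted p = 0.0288; 95% interval -0.91 to -0.36). An exact two-sided permutation of the 5 libraries gave p = 0.1, the smallest that 3 against 2 allow. In bulk RNA, fewer cells that carry a transcript and less of it per cell cannot be told apart. The call was lost, with a limma adjusted p of 0.0704 when no filter on low values was used, 0.0521 without the mean-variance trend, 0.1001 or 0.0768 when replicate 1 or 3 of sh-LINC00958 was left out, 0.0887 or 0.144 when replicate 1 or 2 of sh-NC was left out, and 0.114 with a replicate block. Over the 17 alternatives run the EXO1 log2 fold change stayed between -0.78 and -0.49.

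EXO1 was thus 1 of 6 genes called lower, and 0 were called higher. Over all genes tested 5.68% were called lower, 4.12% higher and 9.80% in either direction at a limma adjusted p of 0.05. The fitted change was below 0 in all 6 genes, with a median log2 fold change of -0.23 against 0.0014 over all genes tested. The sh-LINC00958 libraries all lay below both sh-NC libraries for 3 of the 6 (EXO1, MSH3 and MLH3), where 25.5% of all genes tested did so.

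Of the MutS genes neither passed the test. MSH3 (ENSG00000113318, chromosome 5, 80654648 to 80876460) measured 9.11, 9.17 and 7.83 TPM in sh-LINC00958 and 11.02 and 11.7 TPM in sh-NC. Its groups did not overlap, with means of 8.70 ± 0.757 (SD, n = 3) and 11.3 ± 0.454 TPM (SD, n = 2). MSH3 had a log2 fold change of -0.35 (limma adjusted p = 0.123; 95% interval -0.65 to -0.05). MSH6 (ENSG00000116062, chromosome 2, 47695530 to 47810101) measured 16.3, 21.6 and 17.6 TPM in sh-LINC00958 and 21.6 and 22.2 TPM in sh-NC. Its sh-LINC00958 replicate 2 was level with the controls while the other 2 libraries were lower, and the log2 fold change was -0.24 (limma adjusted p = 0.298; 95% interval -0.58 to 0.10). Without that replicate the MSH6 log2 fold change was -0.35 (adjusted p = 0.0815), and without replicate 1 it was -0.16 (adjusted p = 0.556).

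None of the MutL genes passed either. PMS2, the partner in the main repair heterodimer and the subunit that carries its nicking activity, measured 26.0, 29.6 and 29.96 TPM in sh-LINC00958 and 28.7 and 32.6 TPM in sh-NC. These groups overlapped, and the log2 fold change was -0.10 (limma adjusted p = 0.581; 95% interval -0.37 to 0.17). MLH3, known chiefly for meiotic crossing over, measured 13.3, 12.8 and 13.7 TPM against 15.5 and 15.9 TPM. Its groups did not overlap and its spread was small, with means of 13.3 ± 0.455 (SD, n = 3) and 15.7 ± 0.297 TPM (SD, n = 2) and a log2 fold change of -0.22 (limma adjusted p = 0.189; 95% interval -0.47 to 0.02). PMS1, whose role in human repair is the least settled of the 3, measured 22.5, 36.02 and 21.9 TPM against 30.7 and 28.2 TPM. Here sh-LINC00958 replicate 2 was the highest of all 5 libraries and the other 2 of its group the lowest, so the interval of the log2 fold change was the widest of the 6 genes (-0.17, from -0.72 to 0.38, limma adjusted p = 0.658). Without that replicate the PMS1 log2 fold change was -0.39 (adjusted p = 0.0603), and without replicate 1 or 3 it was -0.063 (adjusted p = 0.902) or -0.045 (adjusted p = 0.920). PMS2 spans 5973239 to 6009125 of chromosome 7, PMS1 189784085 to 189877629 of chromosome 2 and MLH3 75013764 to 75051532 of chromosome 14.

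**Figure D2:**
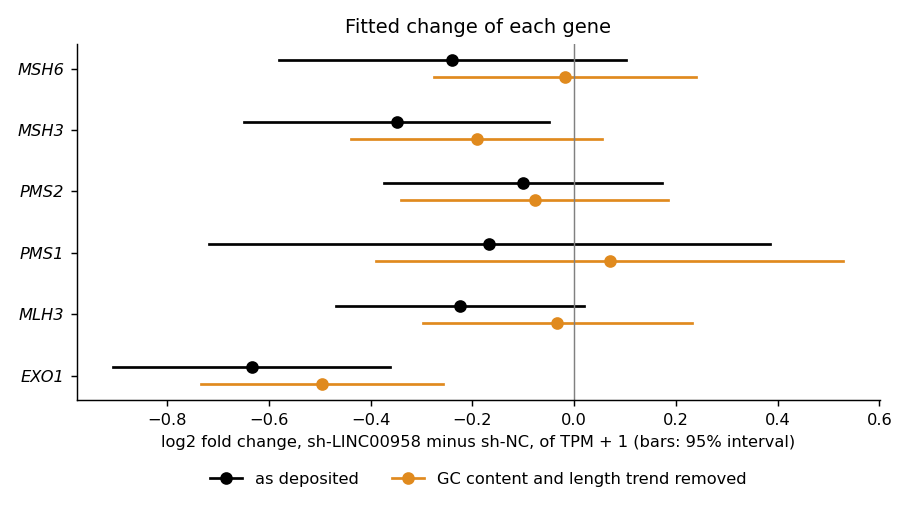
Fitted log2 fold change of the 6 genes (points) with 95% intervals (bars), from the values as deposited and after the GC content and length trend was removed. The interval of EXO1 lies below 0 in both fits; that of MSH3 does so only before the removal, and the fitted change of PMS1 moves from -0.17 to 0.070.

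The proportions between alternative subunits did not separate the groups, and no p fell below 0.05. The ratio of MSH6 to MSH3 was 1.79, 2.36 and 2.25 in sh-LINC00958 and 1.96 and 1.90 in sh-NC. The difference of the log2 ratios was 0.13 (exact two-sided permutation p = 0.4, 0.6 after Benjamini-Hochberg adjustment over the 3 ratios). For PMS2 to MLH3 the ratios were 1.95, 2.31 and 2.18 against 1.86 and 2.05, a log2 difference of 0.13 (exact permutation p = 0.3, adjusted 0.6). For PMS2 to PMS1 they were 1.16, 0.823 and 1.37 against 0.937 and 1.16, a log2 difference of 0.07 (exact permutation p = 0.9, adjusted 0.9). With 1 library left out at a time the log2 difference ran from 0.054 to 0.26 for MSH6 to MSH3 (lowest without sh-LINC00958 replicate 2, highest without replicate 1). It ran from 0.062 to 0.21 for PMS2 to MLH3 (lowest without sh-NC replicate 1, highest without replicate 2) and from -0.094 to 0.27 for PMS2 to PMS1 (lowest without sh-LINC00958 replicate 3, highest without replicate 2). Groups overlapped in all 3 ratios, and a design of 3 against 2 libraries cannot give a p under 0.1. The MSH6 to MSH3 ratio had an SD of 0.215 (log2, n = 3) with the LINC00958 hairpin and 0.0335 (n = 2) with the control. Both ratios that use PMS2 are uncertain, since PMS2 shares sequence with copies of the gene, described further on.

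**Figure D3:**
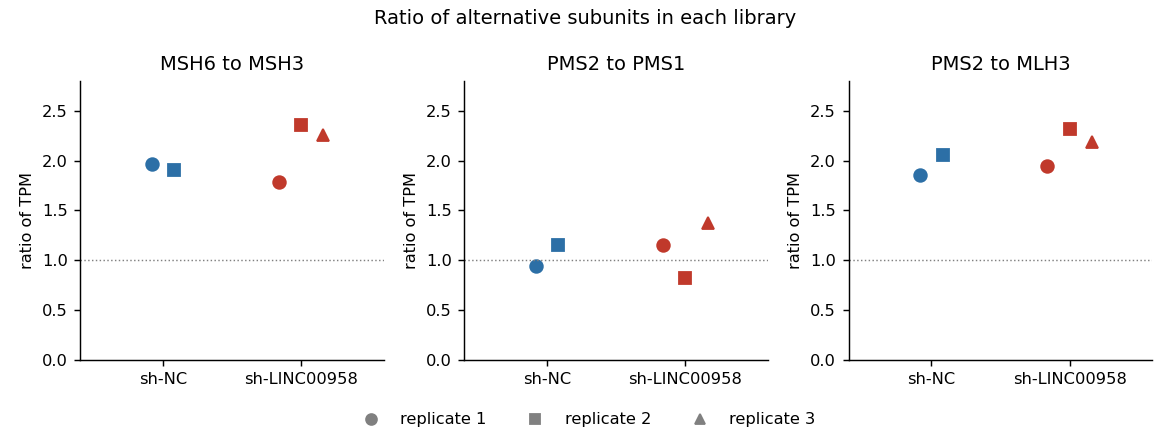
Ratio of TPM between alternative subunits in each library (vertical axis from 0, dotted line at equal levels). The sh-LINC00958 and sh-NC libraries overlap in all 3 panels, and MSH6 exceeds MSH3 and PMS2 exceeds MLH3 in every library. PMS2 values are uncertain, since PMS2 shares sequence with copies of the gene.

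Fold changes over all genes varied with the GC content of the transcript. The 6 genes' longest transcripts hold 39.9% (PMS1) to 46.2% (PMS2) GC. The genes tested were divided into 4 equal bins of GC content. In the lowest bin (23.1% to 42%), which holds MSH6, PMS1 and MLH3, the median log2 fold change was -0.29 and 15.6% were called lower. In the next bin (42% to 48.2%), which holds MSH3, PMS2 and EXO1, the median was -0.06 and 4.59% were called lower. In the highest bin the median was 0.18. After the trend with GC content and length was removed, the log2 fold changes were -0.018 for MSH6, -0.033 for MLH3, -0.078 for PMS2, 0.070 for PMS1 and -0.19 for MSH3, with limma adjusted p-values between 0.290 and 0.934. EXO1 stayed just within the threshold (-0.50, 95% interval -0.73 to -0.26, adjusted p = 0.0493), when 2.78% of genes were called lower and 5.33% in either direction. The median over the 6 genes moved from -0.23 to -0.06.

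**Figure D4:**
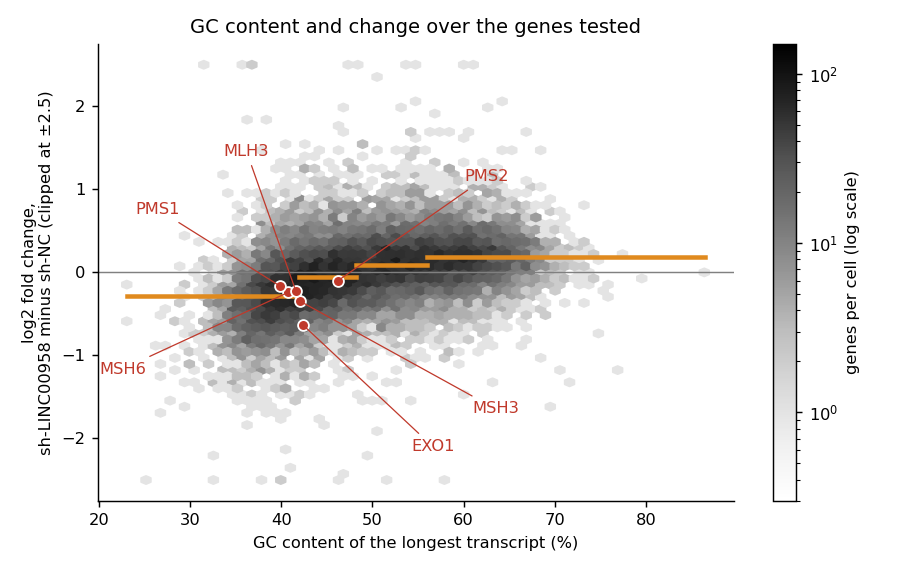
GC content of the longest transcript (percent) against the log2 fold change of every gene tested with an annotated transcript, as shaded counts on a log scale; orange lines are medians of 4 equal bins. The medians climb from -0.29 to 0.18 with GC content. Of the mismatch repair genes (red) EXO1, at -0.63, MSH3, at -0.35, and PMS2, at -0.10, lie below the median of their bin (-0.06). MSH3 (42.1% GC) and EXO1 (42.4%) lie at the lower edge of that bin, beside the bin with the median of -0.29.

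How far the values belong to these genes alone was checked on the transcript sequences of GENCODE release 29. Of the 50-base windows of the longest coding transcript of PMS2, 34.1% also occur in transcripts of other genes, 28.8% in the pseudogene PMS2CL. With 100-base windows 17.4% were shared. PMS2 values can therefore include reads of its copies, or lose reads to them, and are uncertain. PMS2CL measured 23.9, 15.2 and 21.8 TPM in sh-LINC00958 and 12.2 and 14.4 TPM in sh-NC (log2 fold change 0.56, limma adjusted p = 0.136). The summed level of PMS2CL and 10 further PMS2 copies was 72.2, 65.7 and 72.02 TPM against 58.1 and 61.7 TPM, so the groups of the summed copies did not overlap (24.4% of all genes tested were higher in this way) while those of PMS2 did. In MSH3 1.34% of 50-base windows were shared and none of 100 bases, and in MSH6, PMS1, MLH3 and EXO1 there were none of either length. Windows were compared on the transcript strand only, so sequence shared with a gene on the opposite strand was not counted. Without a stated strand setting, such reads could still enter these values.

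Chromosomal neighbours of the 6 genes were also measured. AIMP2, a scaffold of the tRNA synthetase complex, starts 120 bases from PMS2 in the other direction and had a log2 fold change of 0.08 (adjusted p = 0.594). ORMDL1, a regulator of sphingolipid synthesis, starts 286 bases from PMS1 and measured 60.7, 72.8 and 65.7 TPM against 83.2 and 81.7 TPM. The ORMDL1 log2 fold change of -0.31 (adjusted p = 0.0997) turned to 0.15 once the trend with GC and length was taken out. FBXO11 runs against MSH6 and overlaps it by 20786 bases. FBXO11 had a log2 fold change of -0.28 (adjusted p = 0.205), and -0.037 after the GC and length removal, beside -0.24 and -0.018 for MSH6. The sources used here do not state a strand setting, so reads of MSH6 and FBXO11, or PMS1 and ORMDL1, where their exons meet may not be separable. ACYP1, upstream of MLH3, overlapped between groups (38.3, 66.5 and 35.4 against 80.9 and 48.5 TPM), and WDR64 beside EXO1 was at 0 in all 5 libraries. None of the 7 neighbours tested was called in limma, where 9.80% of all genes tested were. Their median log2 fold change was -0.28, and -0.037 after the GC and length removal. Of the 7, 3 genes, CCZ1, ORMDL1 and OSGEPL1, had an unadjusted p under 0.05, as did 30.7% of all genes tested.

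The steps after excision were mostly not called. Of 15 genes for the PCNA clamp, its RFC loader, the RPA single-strand binding proteins, DNA polymerase delta, LIG1 and HMGB1, 1 fell and 0 rose. Over all genes tested 5.68% were called lower and 4.12% higher, so most genes of any kind were not called. The median log2 fold change of the 15 was -0.09. The gene that fell was RFC3, a clamp loader subunit, with 22.9, 27.0 and 22.8 TPM in sh-LINC00958 and 75.6 and 81.8 TPM in sh-NC (log2 fold change -1.66, limma adjusted p = 0.0049). PCNA, which the MutS and MutL complexes contact on DNA, had a log2 fold change of -0.02 (95% interval -0.24 to 0.20, adjusted p = 0.899). POLD1, the catalytic subunit of polymerase delta, had 0.30 (adjusted p = 0.0857). After the GC and length removal POLD1 had 0.12 (limma adjusted p = 0.368), while RFC3 was still called (-1.39, adjusted p = 0.0036).

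Among 10 accessory genes and meiotic relatives of the pathway, MSH5, a MutS homologue of meiotic recombination, was called higher and 0 were called lower. Of all genes tested 4.12% were called higher and 5.68% lower. The median log2 fold change of this list was -0.21, and 0.10 after the GC and length removal. MSH5 measured 57.6, 49.1 and 53.2 TPM in sh-LINC00958 and 31.8 and 38.0 TPM in sh-NC, a log2 fold change of 0.60 (limma adjusted p = 0.0363; 95% interval 0.31 to 0.89). The MSH5 call was lost once the trend with GC and length was taken out (0.48, adjusted p = 0.0588). On the same strand of chromosome 6 its annotation overlaps the read-through gene MSH5-SAPCD1 by 22815 bases, so its level is uncertain. MSH4, the partner of MSH5, was barely present at 1.81, 1.74 and 1.34 TPM against 2.58 and 1.62 TPM. SMARCAD1, a chromatin remodeler, had -0.39 (adjusted p = 0.0847) and turned to 0.029 when the trend was removed.

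Other nucleases of 11 listed included 1 that fell and 0 that rose (median log2 fold change 0.09), where 5.68% of all genes tested were called lower and 4.12% higher. DNA2, a nuclease-helicase of end resection and Okazaki fragment processing, measured 45.3, 45.9 and 44.7 TPM against 66.2 and 67.8 TPM (log2 fold change -0.56, limma adjusted p = 0.0183). The DNA2 call was lost after removal of the trend (-0.22, adjusted p = 0.185), where that of EXO1 stayed just within the threshold (adjusted p = 0.0493). Over the 17 alternatives DNA2 kept its call in 11 and EXO1 in 10. GEN1, of the same nuclease family as EXO1, had -0.52 (adjusted p = 0.0586), and FEN1, also of that family, -0.14 (adjusted p = 0.341). ERCC5, another of that family, went the other way at 0.12 (adjusted p = 0.731), with overlapping groups. After the removal GEN1 and FEN1 each had -0.26 and ERCC5 0.24, and none of them was called.

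Of 29 replication and E2F-regulated genes 4 fell, CCNE2, E2F7, GINS1 and CCNE1, and 1 rose, E2F1, with a median log2 fold change of -0.05. These 5 calls stood at limma adjusted p-values of 0.0211 (E2F7) to 0.0351. CCNE2 (-0.63, adjusted p = 0.0512) and E2F1 (0.16, adjusted p = 0.193) lost their calls after the GC and length removal. The list holds 24 genes that were not called. Beside EXO1, whose log2 fold change was -0.63, GINS1, a subunit of the replicative helicase, had -0.62, while MCM2 had 0.18 and MCM6 -0.03. After the GC and length removal GINS1 had -0.45, MCM2 0.0075 and MCM6 0.086. In the list as a whole the fitted change was below 0 in 18 genes and above 0 in 11. Over the 77 genes of the 5 repair and replication lists 14.3% were called, with the 9.80% over all genes as background. With the GC and length trend taken out, 5 of the 77 were called, where 5.33% of all genes were.

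**Figure D5:**
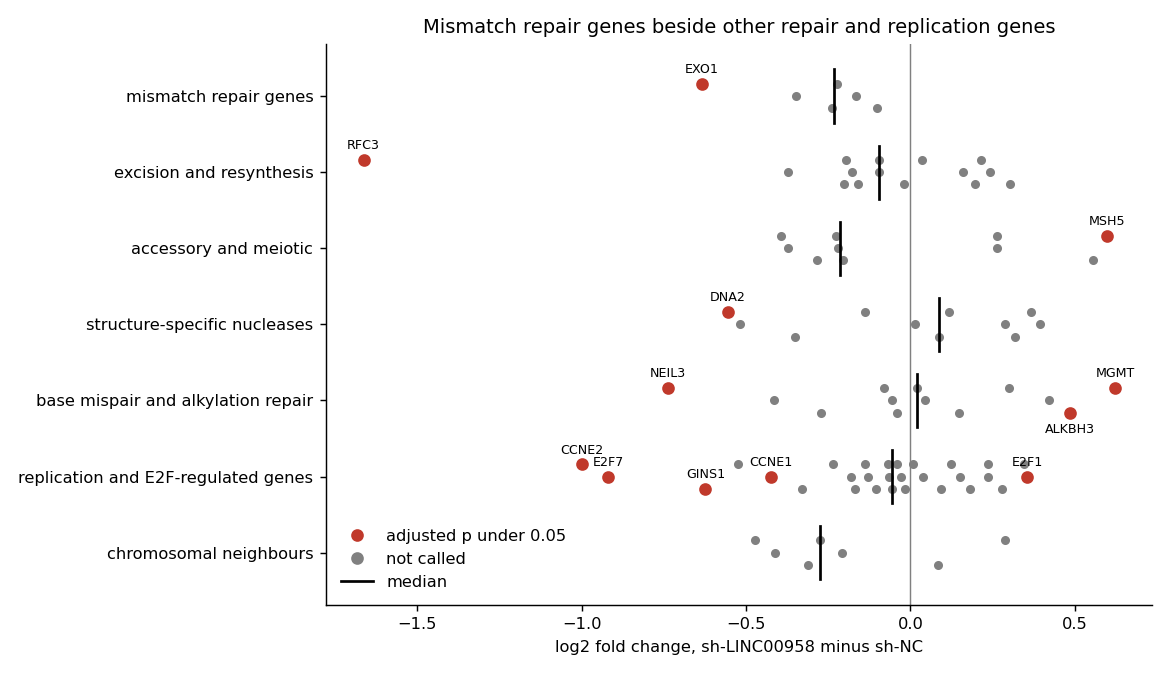
Log2 fold change of the mismatch repair genes and of each listed gene tested, by list (1 point per gene, black line at the list's median); red points have a limma adjusted p under 0.05 and are named. EXO1 is the only red point among the mismatch repair genes, and most points of each list are grey.

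Profiles over the 5 libraries were compared by the root mean square difference of centred log2(TPM + 1) among 10690 other protein-coding genes with a mean of at least 5 TPM. EXO1 was most like SPIN3 (difference 0.0094) and COQ10B (0.017), which measured 7.88, 7.90 and 7.42 against 11.2 and 14.2 TPM and 17.5, 17.8 and 16.2 against 24.7 and 29.5 TPM. MSH3 was most like VAMP2 (0.014) and NUDT19 (0.023), and MLH3 most like BCAS2 (0.017) and PRDM15 (0.020). MSH6 came closest to GOLGA6L9 (0.019) and TRMT11 (0.031), PMS2 to SPTY2D1 (0.019) and PAPOLG (0.021), and PMS1 to ZNF343 (0.046) and PDPK1 (0.053). The nearest profiles of PMS1 shared its high value in sh-LINC00958 replicate 2, with 23.5 TPM for ZNF343 in that library against 14.8 and 13.1 TPM in the others of its group. With 5 libraries in 2 groups such likeness is a description and carries no test.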

How the data were processed

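RNA sequencing of 5 libraries was deposited by the authors as 1 table of gene TPM, scaled for gene length and library. Tools named in the submitters' processing notes are StringTie 1.3.3b, HISAT2 2.0, Trimmomatic 0.36 and FastQC 0.11.2, with GRCh38 as the build. The sources used here state neither an annotation release nor strandedness.

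Groups and replicate numbers come from the sample titles. Genes with a mean of at least 1 TPM (17049) were fitted on the log2(TPM + 1) scale by limma 3.58.1, run under R 4.3.3 (eBayes with a mean-variance trend), two-sided, Benjamini-Hochberg over all genes tested, threshold 0.05. Fold changes on the log2(TPM + 1) scale understate the change of low genes. The fit was tested on simulated data with independent normal noise for each gene. The simulation held no trend with GC content and no shift shared across a library, so it does not check the p-values against these. The GC and length trend was removed per library by splines across 16999 genes with a transcript in GENCODE release 29, where 57836 of the 58174 gene IDs were found. Promoters are RefSeq's (GRCh38.p14), matched by symbol for all 6 genes.

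The members, the gene lists and the rule for named genes (the 6 genes; in each pathway list those called and the 2 with the smallest p; the neighbours nearest each gene; the 2 nearest profiles) were chosen with earlier results of these data known. PMS2CL, PCNA, MSH4, FEN1, ERCC5, MCM2, MCM6, TDG, MBD4, CCZ1, OSGEPL1 and the markers fall outside that rule and were named after their values were seen. Common partner subunits of the MutS and MutL heterodimers are not analysed here, and 1 chromosomal neighbour of the members is not reported here. Alternatives were other pseudocounts, filters, scalings and variance models, the GC and length removal, a replicate block and leaving out each library.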

Additional observations from a re-analysis of the deposited data

How the results depend on the processing

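The 6 genes were refitted under 17 alternatives each. MSH6, MSH3, PMS2 and MLH3 kept a log2 fold change below 0 and stayed uncalled in all 17. PMS1 stayed uncalled and turned to 0.070 once the GC content and length trend was removed. EXO1 kept its direction in all 17 and its call in 10, with 0.0704 as the limma adjusted p and -0.63 as the log2 fold change with no filter, and 0.0521 and -0.63 without the mean-variance trend. Leaving out 1 library at a time gave EXO1 -0.78 to -0.49 (limma adjusted p 0.0392 to 0.144), with the lone sh-NC library then assumed to vary like the others. Of the 6 genes 1 was called, and 0 with no filter, without the trend and under the replicate block, and ranged from 0 to 1 over the left-out libraries.

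Genes called higher and lower (702 and 969) numbered 207 and 269 with no filter, 371 and 518 without the mean-variance trend, 1428 and 1851 with array weights, 433 and 473 with the GC and length trend removed, and 10 to 904 and 6 to 1486 with 1 library left out. Leaving out sh-NC replicate 1 or 2 left 1 library in that group and few calls, so no direction is read from those calls. Pathway list genes called, 11 of 77, numbered 2, 5, 24 and 5 under the same 4 settings and 0 to 16 with 1 library left out; these refits were added after the data were seen. The groups share numbers 1 and 2 only, which no label ties to a culture, and same-numbered libraries did not deviate together (correlations 0.0013 and 0.050 across genes). With the replicate block, in which sh-LINC00958 replicate 3 has no partner and drops out of the comparison, 0 genes were higher and 2 lower, 0 pathway genes were called, and EXO1 had -0.60 (limma adjusted p = 0.114).

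The log2 difference for PMS2 to PMS1 turned to -0.094 without sh-LINC00958 replicate 3 and to -0.082 without sh-NC replicate 1, and ranged from -0.094 to 0.27. With the GC and length trend removed SMARCAD1 turned to 0.029, ORMDL1 to 0.15 and AIMP2 to -0.022. The cause of these shifts was not tested. Sequencing depth is unknown, so its limit on low genes cannot be stated.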

Other observations

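Genes that repair mispaired or alkylated bases by other routes were compared as well, since mismatch repair acts on the mispairs that alkylated guanine leaves. Of 13 such genes 2 rose and 1 fell, where 9.80% of all genes tested were called. Their median log2 fold change was 0.02, and -0.13 after the GC and length removal, where 1 of the 13 was called and 5.33% of all genes were. MGMT, the alkylguanine transferase, measured 34.3, 29.1 and 28.4 TPM in sh-LINC00958 and 18.5 and 20.5 TPM in sh-NC (log2 fold change 0.62, limma adjusted p = 0.0350). ALKBH3, a demethylase of alkylated single-stranded nucleic acid, measured 46.1, 41.4 and 41.4 TPM against 30.9 and 29.8 TPM (0.49, adjusted p = 0.0340). NEIL3, a glycosylase of replicating cells, measured 14.8, 17.3 and 14.9 TPM against 27.2 and 26.2 TPM (-0.74, adjusted p = 0.0219). The groups did not overlap for any of these 3 genes, as in 24.4% of all genes tested on the higher side and 25.5% on the lower. With the GC and length trend taken out, NEIL3 was still called (-0.56, adjusted p = 0.0291), and MGMT (0.44, adjusted p = 0.0724) and ALKBH3 (0.39, adjusted p = 0.0502) were not. TDG and MBD4, glycosylases that act on G-T mispairs, had log2 fold changes of -0.41 (adjusted p = 0.0627) and -0.27 (adjusted p = 0.183). After the GC and length removal TDG had -0.16 (limma adjusted p = 0.307) and MBD4 -0.15 (adjusted p = 0.472).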
